A study of Neurospora crassa with 94 samples.

Results

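The genes mfa-1 (NCU16992), pre-2 (NCU05758) and per-1 (NCU03584) of the filamentous fungus Neurospora crassa were followed through every RNA library of the series. They are 3 of the 10397 genes in the tables and were found by symbol or locus tag in both of them. They were chosen on measured values: all 3 stood high in the isw mutant and in the triple mutant labelled acf iaf-1 iaf-2. Their levels in those mutants against wild type (WT) are therefore given as a description, without a test. The rule sets no numeric threshold. In the reference gene table mfa-1 and per-1 lie on chromosome V and pre-2 on chromosome VII.

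Neurospora has a pair of mating types, A and a, and a cross needs one partner of each. The mfa-1 gene encodes the precursor of the lipid-modified peptide pheromone of mating type a, and pre-2 encodes the receptor with which mating type a cells sense the pheromone of the A partner. The A partner makes its own pheromone from ccg-4 and senses the mfa-1 product through the receptor PRE-1. The per-1 gene encodes a polyketide synthase that starts the black melanin of the perithecium, the fruiting body formed after fertilisation. All 3 genes thus serve the sexual cycle, while the cultures sampled here were labelled as mycelium.

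The series compared wild type with strains labelled for isw, acf, iaf-1, iaf-2 and set-7, alone or combined. The isw gene (crf4-1 in the reference) encodes the ATPase of ISWI chromatin remodelers, acf (crf4-2), iaf-1 (NCU00412) and iaf-2 (NCU09388) were studied as its partners, and set-7 encodes the catalytic subunit of the Polycomb complex PRC2, which methylates histone H3. Total RNA came from mycelial cultures kept in constant light, and the 41 libraries fell into 3 library series named by the number that opens their labels. Series 111 held WT, acf, iaf-1 and iaf-2, series 112 had libraries of WT and of strains labelled acf, set-7 and, as a triple mutant, acf iaf-1 iaf-2. Series 118 held WT, the isw mutant, the double mutants acf iaf-1, acf iaf-2 plus iaf-1 iaf-2, and the triple mutant again. Each group had 3 libraries except iaf-1 iaf-2, which had 2. The labels give no strain background, mating type or age, and nothing says that replicates were separate cultures, so p-values measure the spread between libraries, which may be technical. Levels are in TPM, a transcript abundance unit that corrects for gene length and library total. Each library was scaled to its own total, and differences between the 3 series were not corrected for.

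Library totals ran from 5332503 to 9021398 reads in series 111, from 5652592 to 22582163 in series 112 and from 11711993 to 21973649 in series 118. The crf4-1 level was 2.12 TPM ± 0.445 (SD, n = 3) in isw against 33.0 ± 3.34 in WT, NCU00412 had 0 reads in iaf-1, and NCU09388 had 2 reads in iaf-2. The crf4-2 level went against its label, at 90.6 TPM ± 5.20 in the libraries labelled acf of series 111 against 19.1 ± 2.00 in WT. Its mean was above that of the same series' WT in every group whose label names acf, and in isw. In series 111 its mean was also above WT in iaf-1 (19.9 TPM ± 4.28) and iaf-2 (24.6 ± 0.535). The set-7 gene kept 190 reads in the libraries labelled set-7. These groups are called by their labels below, and whether the named gene was lost in them was not settled by its reads. Each group of series 111 contained 1 pair of much alike libraries, with a chi-square per degree of freedom of 1.53 to 1.93 against 6.93 to 127 for other pairs.

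The pheromone gene mfa-1 was the most abundant transcript of all 10397 genes in isw. Its levels there were 29367, 35186 and 28522 TPM, a mean of 31025 ± 3628 (SD, n = 3), against 31.4, 17.4 and 17.6 TPM in WT of series 118. In the libraries labelled acf iaf-1 iaf-2 of that series it stood at 10751, 18368 and 8434 TPM, a mean of 12518 ± 5197 (n = 3), which ranked 4th by group mean. The triple mutant of series 112 had 16421, 16405 and 14353 TPM against 15.0, 31.7 and 10.6 TPM in its WT, and mfa-1 ranked 5th there. These 9 mutant libraries lay far above every WT library, and the highest library of any other genotype was at 136 TPM. The ratio of mean TPM to WT was 1403 in isw, 566 in the triple mutant of series 118 and 824 in that of series 112.

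Everywhere else mfa-1 was a gene of middling or low level. In series 111 it measured 6.67, 10.2 and 7.62 TPM in WT, 6.08, 5.90 and 6.24 in libraries labelled acf, 10.4, 3.88 and 7.95 in iaf-1, and 8.29, 7.02 and 8.59 in iaf-2. In series 112 it measured 8.59, 6.87 and 14.0 TPM in libraries labelled set-7 and 11.8, 17.6 and 9.77 in those labelled acf. Of these groups, only acf of series 111 lay wholly to one side of its WT, just below it. Among the double mutants of series 118, mfa-1 measured 20.4, 25.0 and 21.8 TPM in acf iaf-1, 136, 23.8 and 28.1 in acf iaf-2, and 27.9 and 43.1 in iaf-1 iaf-2. Each double mutant overlapped WT, and the value of 136 came from 1 library, acf iaf-2 replicate 1.

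The receptor gene pre-2 was likewise high in isw and the triple mutants, at a lower level than mfa-1 in TPM and with the triple mutant of series 118 above isw. It measured 248, 298 and 278 TPM in isw, 384, 406 and 340 in acf iaf-1 iaf-2 of series 118, and 222, 210 and 208 in acf iaf-1 iaf-2 of series 112. The WT levels were 2.20, 1.56 and 1.39 TPM in series 118 and 0.559, 2.57 and 0.821 in series 112. The ratio of mean TPM to WT was 160 in isw, 220 in the triple mutant of series 118 and 162 in that of series 112. The mutant libraries varied little among themselves, with a coefficient of variation of 9.23% in isw and 3.65% in the triple mutant of series 112.

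Of the double mutants, acf iaf-2 stood apart for pre-2. Its 3 libraries measured 8.14, 6.14 and 8.85 TPM, against 1.83, 2.90 and 1.87 in acf iaf-1 and 2.87 and 1.34 in iaf-1 iaf-2. The acf iaf-2 libraries lay above all libraries of WT, acf iaf-1 and iaf-1 iaf-2, and far below isw and the triple mutant. In the remaining groups pre-2 was close to the limit of counting. It measured 1.47, 0.766 and 0.721 TPM in WT, 0.636, 0.325 and 0 in acf, 0.430, 0.856 and 0.319 in iaf-1 and 0.511, 0.581 and 0.730 in iaf-2 of series 111, from 0 to 10 reads a library. In series 112 it measured 0.367, 1.21 and 2.82 TPM in libraries labelled set-7 and 1.59, 1.61 and 1.89 in those labelled acf. Both groups of series 112 overlapped WT, whose own libraries spread over a range of 4.59 times.

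The polyketide synthase gene per-1 was almost silent in WT. It measured 0.229, 0.229 and 0.111 TPM in WT of series 118, from 5 to 13 reads a library, and 14.3, 17.9 and 16.9 TPM in isw. In libraries labelled acf iaf-1 iaf-2 it measured 24.5, 25.7 and 19.7 TPM in series 118 and 24.9, 33.3 and 39.4 in series 112, where WT had 0.202, 0.0884 and 0.170. The mutant groups did not overlap WT, and the ratio of mean TPM was 86.3 in isw, 123 in the triple mutant of series 118 and 212 in that of series 112. Even so, per-1 ranked 5588th of 10397 genes in isw, while pre-2 ranked 535th.

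Intermediate levels of per-1 appeared in the double mutants. The libraries measured 0.421, 0.815 and 0.904 TPM in acf iaf-1, 0.900, 0.638 and 0.716 in acf iaf-2, and 0.352 and 0.644 in iaf-1 iaf-2. All 8 lay above all 3 WT libraries of the series. In series 112 the libraries labelled acf measured 0.396, 0.482 and 0.323 TPM, all above WT, and those labelled set-7 measured 0.310, 0.146 and 0.111, overlapping it. Series 111 held 6 reads of per-1 in WT, 12 in acf, 4 in iaf-1 and 3 in iaf-2 over the 3 libraries of each group, too few to order them. In bulk RNA a change in the number of cells that make a transcript and a change in the amount per cell cannot be told apart.

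**Figure D1:**
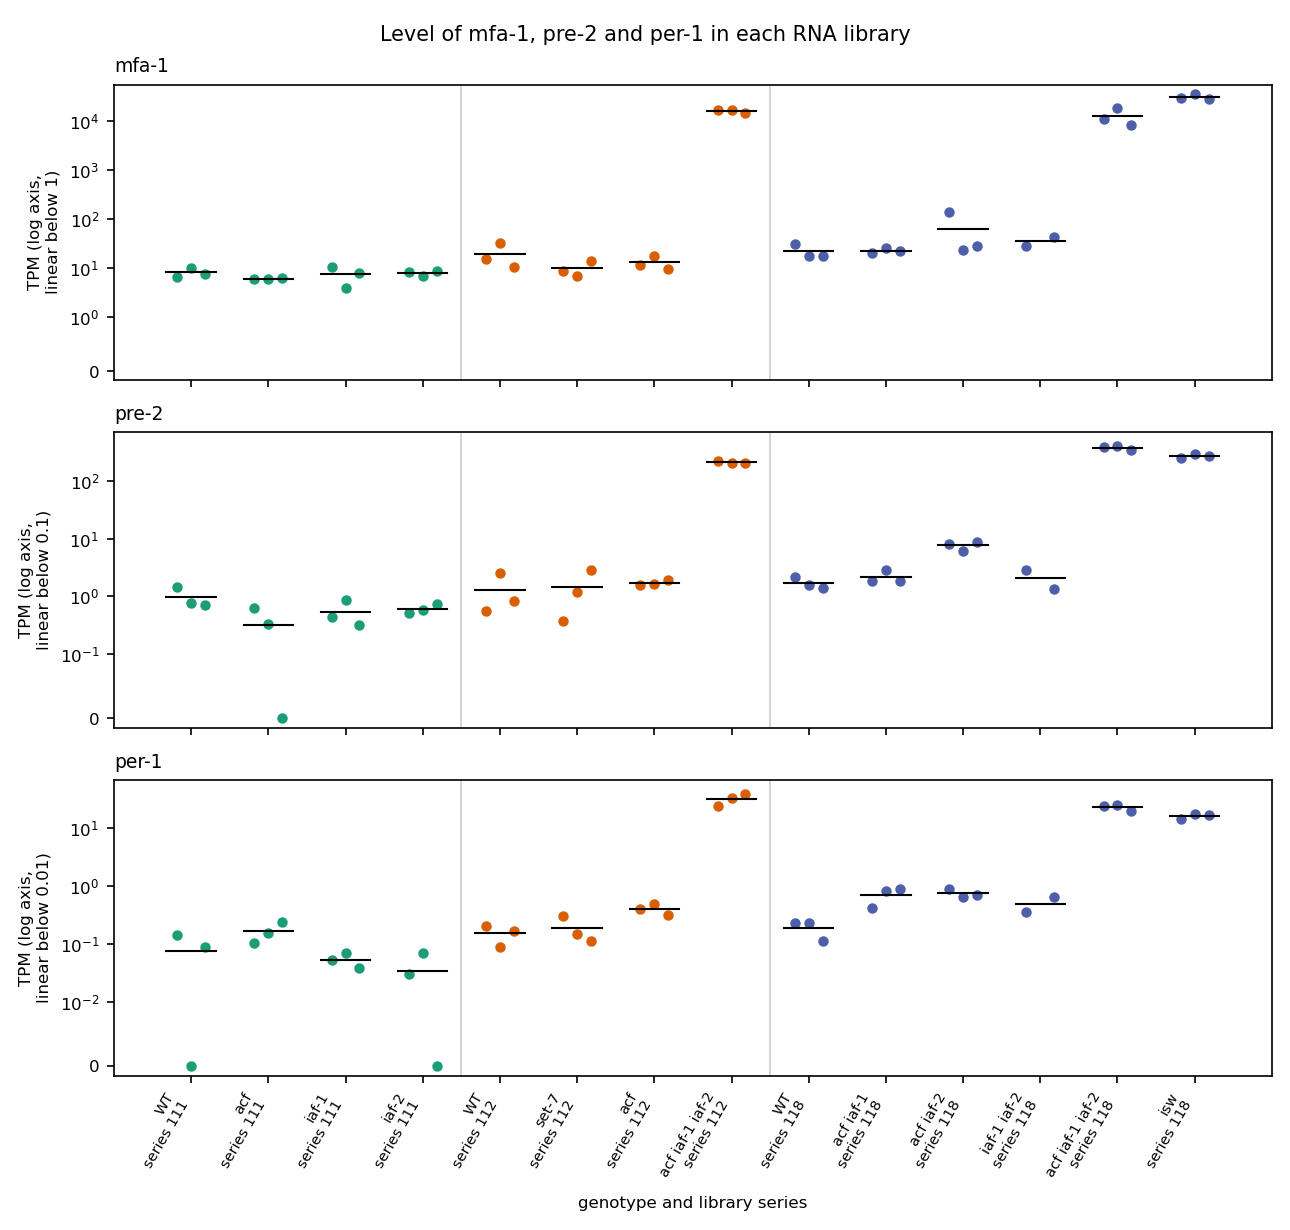
Level of mfa-1, pre-2 and per-1 in TPM (logarithmic axis, linear below the value named on it) in each of 41 libraries; points are libraries, bars are group means, and colours mark the library series. The isw and acf iaf-1 iaf-2 libraries stand far above all others for each gene, and acf iaf-2 stands above WT of series 118 for pre-2.

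The proportions of the 3 transcripts differed between isw and the triple mutant. Within series 118, every isw library was above every triple mutant library for mfa-1, a ratio of means of 2.48, whereas pre-2 and per-1 were higher in every triple mutant library, by 1.37 and 1.42 times. Of all 9339 genes measured, 40.5% likewise had no overlap between these groups, so the separation of the 3 genes is a common one here and is given without a test. The level of mfa-1 was 103 to 118 times that of pre-2 within single isw libraries and 24.8 to 45.2 times in the triple mutant of series 118. The pre-2 level was 16.4 to 17.3 times that of per-1 in isw and 15.7 to 17.3 times in that triple mutant, ranges that overlap.

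The triple mutant was the one high genotype prepared in more than 1 series. Its mfa-1 levels overlapped between series 112 and 118, with means of 15726 and 12518 TPM, and so did those of per-1, with means of 32.5 and 23.3. The pre-2 level did not overlap and was 1.77 times higher in series 118. The share of all genes without overlap between these groups was not counted, so nothing is read from this separation. These levels were scaled library by library, with no correction for differences between the series.

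The contrasts by which the genes were chosen moved a large part of the transcriptome. In isw against WT, 48.3% of tested genes passed the threshold (limma on log2(TPM + 1), Benjamini-Hochberg adjusted p under 0.05), and 29.0% were higher. In acf iaf-1 iaf-2 against WT the share was 51.1%, with 29.8% higher, in series 118 and 54.9%, with 28.6% higher, in series 112 (edgeR's quasi-likelihood test). All 3 genes were among those higher, as their choice required, and nothing is read from that count. The fitted log2 fold changes of mfa-1 were 10.44 in isw, 9.06 in the triple mutant of series 118 and 9.84 in that of series 112. For pre-2 they were 6.67, 7.13 and 7.38 and for per-1 3.87, 4.35 and 7.95. The values of series 118 are on the log2(TPM + 1) scale, which understates the change of genes that are low in WT, per-1 above all.

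The single mutants were tested next, since the genes were not chosen on them. In series 111 only mfa-1 passed the filter on low counts, and it was not called in any of the 3 comparisons. Its log2 fold change was −0.26 ± 0.33 (SE) in acf, −0.14 ± 0.33 in iaf-1 and −0.11 ± 0.31 in iaf-2, with adjusted p of 0.503, 0.781 and 0.847 (edgeR's quasi-likelihood test, Benjamini-Hochberg). In those comparisons 66.0%, 28.8% and 19.6% of tested genes were called, or 5265, 2299 and 1564 genes. With the much alike libraries summed these were 4105, 476 and 4 genes, so the shares of iaf-1 and iaf-2 rest on counting those libraries separately. Thus mfa-1 was not among the genes called in libraries labelled acf, where most tested genes were. It had 19 to 25 reads a library there and 28 to 44 in WT. At such low counts a missing call does not show that its level was unchanged.

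In series 112 the WT libraries are those of a contrast used in the choice, so these tests are not independent of it on the WT side. All 3 genes passed the filter, which the triple mutant libraries helped them to pass, and with the compared groups alone per-1 failed it for set-7. Against WT, no gene of the 3 was called in set-7, where 14.1% of genes were called. The log2 fold changes there were −0.81 ± 0.36 for mfa-1 (adjusted p = 0.145), 0.46 ± 0.49 for pre-2 (0.556) and 0.17 ± 0.53 for per-1 (0.858), by edgeR. Without WT replicate 3, mfa-1 was called lower in set-7, at −1.07 ± 0.33 (adjusted p = 0.0485).

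In libraries labelled acf of series 112, per-1 was called higher, by 1.53 ± 0.42 on the log2 scale (adjusted p = 0.0150, edgeR, all 3 libraries above WT), among 27.2% of genes called. It was also above set-7, by 1.35 ± 0.38 (adjusted p = 0.0204), where 19.0% of genes were called. These calls rest on 16 to 79 reads a group. The first was lost without WT replicate 2 (the range of adjusted p over 11 alternatives was 0.00368 to 0.105). The second was lost without set-7 replicate 2 or 3, without acf replicate 1 or 2, and in a fit of the compared groups alone, with adjusted p from 0.00537 to 0.168 over 11 alternatives. The other genes did not pass: the log2 fold changes of mfa-1 and pre-2 were −0.49 ± 0.34 and 0.30 ± 0.49 in acf against WT, with adjusted p of 0.312 and 0.686.

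Whether the effect of the acf label differed between series 111 and 112 was tested as an interaction, for which 47.5% of genes were called. Neither mfa-1 (difference of log2 fold changes −0.31 ± 0.54, adjusted p = 0.667) nor pre-2 (1.78 ± 0.99, adjusted p = 0.158) was among them, and per-1 did not pass the filter. Without WT replicate 2 of series 112 the pre-2 difference was 2.73 and was called (adjusted p = 0.0222, edgeR).

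In the double mutants of series 118, pre-2 rose in acf iaf-2. Its change against WT was 1.68 ± 0.19 on the log2(TPM + 1) scale (limma, adjusted p = 1.95e-06), among 24.7% of genes called, and 7.71 against 1.71 TPM by group mean. It was called in all 13 alternatives run, with log2 fold changes from 1.59 to 2.12. The difference was not shared by the other doubles. In acf iaf-1, where 31.6% of genes were called, the pre-2 value was 0.23 ± 0.19 (adjusted p = 0.362), and in iaf-1 iaf-2, where 21.5% were called, it was 0.16 ± 0.21 (adjusted p = 0.646). Tested directly, acf iaf-1 was lower than acf iaf-2 by −1.45 ± 0.19 (adjusted p = 9.4e-05, 9.96% of genes called), and acf iaf-2 was higher than iaf-1 iaf-2 by 1.52 ± 0.21 (adjusted p = 3.38e-05, 27.3% of genes called). Between acf iaf-1 and iaf-1 iaf-2 none of the 3 genes was called, where 26.5% of genes were. The WT libraries here are those of the contrasts used in the choice, whereas the tests between doubles share none of the chosen groups. However, matA-1, a gene of the A mating-type locus, had a mean of 47.6 TPM in acf iaf-1 and 0 in acf iaf-2 and iaf-1 iaf-2. Genotype and mating type therefore cannot be told apart in the tests of acf iaf-1 against these doubles.

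The per-1 gene was called higher in both doubles that carry the acf label, but it entered the test only because the isw and triple mutant libraries carried it past the filter. Where only the compared groups were fitted it failed the filter, and with no filter it was called (adjusted p = 0.0215 and 0.0161). The log2 fold change was 0.52 ± 0.16 in acf iaf-1 (adjusted p = 0.0235) and 0.56 ± 0.16 in acf iaf-2 (adjusted p = 0.0182) by limma on log2(TPM + 1). By edgeR on whole reads recovered from the TPM it was 1.93 ± 0.36 and 1.89 ± 0.36. The ratios of mean TPM were 3.75 and 3.95. In iaf-1 iaf-2 it was 0.33 ± 0.18 (adjusted p = 0.225) and not called, but by edgeR it was 1.28 ± 0.41 and was called (adjusted p = 0.0305), and with a pseudocount of 0.1 also (1.03 ± 0.34, adjusted p = 0.0405). Between doubles per-1 was not called, with adjusted p of 0.909, 0.482 and 0.392. The per-1 calls were lost without WT replicate 3 in both doubles, without replicate 2 or 3 of acf iaf-1, and without replicate 1 of acf iaf-2, with adjusted p up to 0.0943 and 0.0771.

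The pheromone gene mfa-1 was called in no double mutant. Its log2 change was 0.07 ± 0.51 in acf iaf-1 (adjusted p = 0.944, limma), 0.68 ± 0.57 in iaf-1 iaf-2 (0.446) and 1.05 ± 0.51 in acf iaf-2 (0.165). For acf iaf-2 the value rested on replicate 1, without which it was 0.27 ± 0.30. Measured against acf iaf-2, mfa-1 was 496 times higher in isw and 200 times higher in the triple mutant by mean TPM, pre-2 was 35.6 and 48.9 times higher, and per-1 21.8 and 31.0 times higher. Without acf iaf-2 replicate 1 the mfa-1 ratios were 1196 and 482, from a mean of 26.0 TPM (n = 2).

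**Figure D2:**
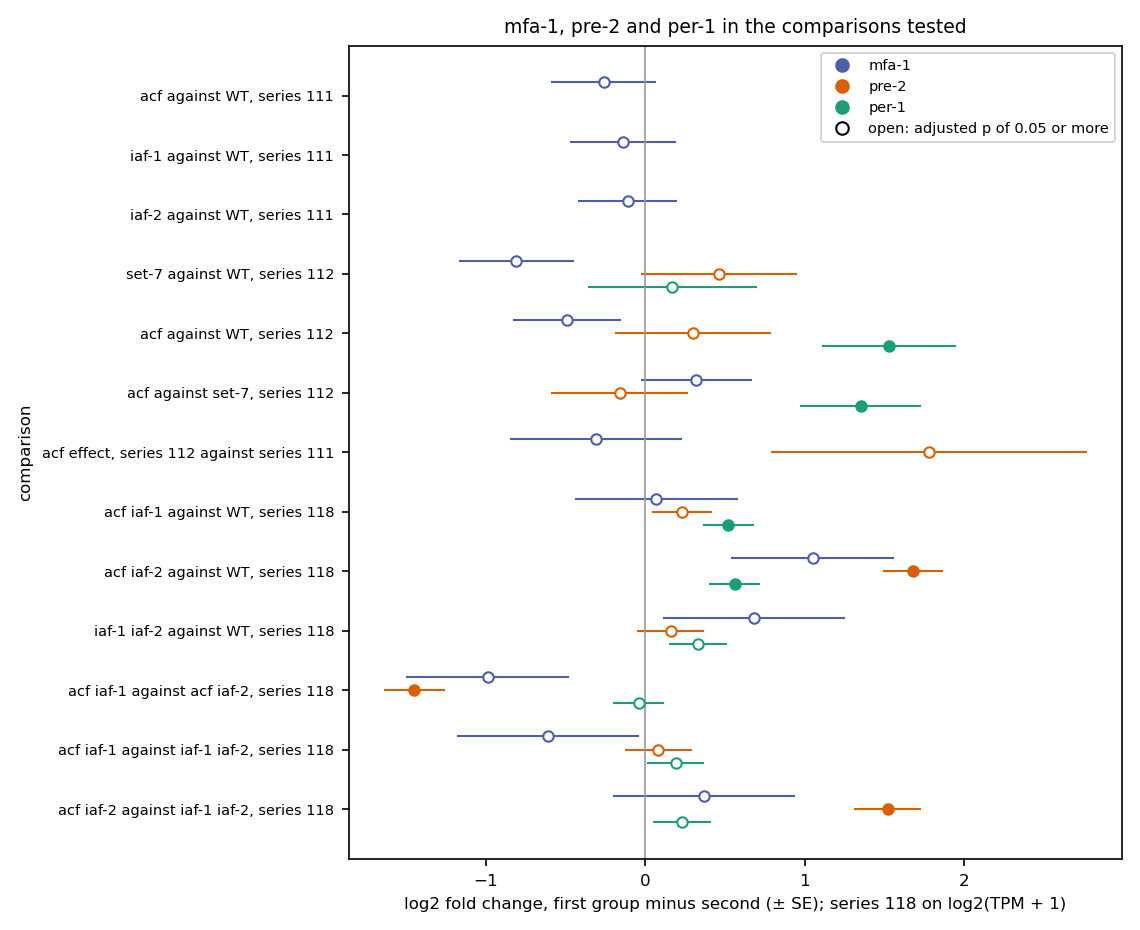
Log2 fold change (± SE) of mfa-1, pre-2 and per-1 in each comparison that was tested; filled points have an adjusted p under 0.05, open points do not, and genes that failed the filter are not drawn. The filled points are per-1 in acf of series 112, against WT and against set-7, and in both doubles with the acf label, and pre-2 wherever acf iaf-2 is compared. In the double mutants per-1 was under 1 TPM and passed the filter only through the isw and triple mutant libraries.

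Marker genes of mating type A were examined, because mfa-1 and pre-2 are known as genes of mating type a and the labels give no mating type. The matA-1 gene, which is part of the A mating-type locus, had 151, 92 and 125 reads in WT of series 111, 7, 14 and 30 in WT of series 112, and 6, 8 and 7 in WT of series 118. It had 0 reads in isw and in the triple mutant of series 112, and 3 in that of series 118. It also had 0 reads in acf and iaf-1 and 1 in iaf-2 of series 111, 0 in set-7 and 2 in acf of series 112, and 0 in acf iaf-2 and iaf-1 iaf-2. The matA-1 level was thus near 0 in all mutant groups but one, in those with low mfa-1 as well as in those with high mfa-1.

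The exception was acf iaf-1, with 58.5, 43.6 and 40.6 TPM of matA-1. In the same libraries the A pheromone gene ccg-4 measured 21.7, 19.4 and 27.3 TPM. It had 0 reads in WT of every series, which for series 118 allows up to 0.0749 CPM over the group (3 reads, counting error only). The receptor gene of A cells, pre-1, rose by 0.84 ± 0.17 in acf iaf-1 (log2(TPM + 1), limma, adjusted p = 0.00129). The rise of matA-1 over WT was 4.81 ± 0.17 (adjusted p = 4.37e-13). In isw and the triple mutants ccg-4 had 13, 14 and 3 reads a group and pre-1 measured 3.59 TPM ± 1.16 (SD, n = 3) in isw and 3.53 ± 0.527 in the triple mutant against 3.10 ± 0.588 in WT of series 118. In the triple mutant of series 112 pre-1 was called higher, at 5.79 ± 1.47 against 2.97 ± 0.313 TPM (1.12 ± 0.20, adjusted p = 0.000281, edgeR). The whole marker list of 5 genes, with matA-2 and matA-3, summed to 3.60 to 4.53 TPM in WT of series 118, 2.60 to 5.13 in isw, 3.50 to 4.62 in the triple mutant, 3.44 to 3.63 in acf iaf-2 and 70.8 to 89.0 in acf iaf-1. In series 111 it summed to 21.1 to 31.5 TPM in WT and 1.81 to 4.78 over the mutants. Since all WT libraries hold matA-1 reads, and the isw and triple mutant libraries hold 0 to 2 each, genotype and mating type cannot be told apart in the contrasts with WT. The same holds for contrasts of acf iaf-1, the group high in A markers, with the other doubles. In the high mutants and in both doubles other than acf iaf-1, the A markers matA-1, matA-2 and matA-3 were at or near 0. Of ccg-4, iaf-1 iaf-2 had 0 reads and acf iaf-2 had 6. In series 118, isw had 13 and the triple mutant 14. Every high mutant library was above these doubles for mfa-1, but the genes were chosen for those high levels. Few A reads do not establish mating type a, so a part of mating type in the mfa-1 levels was not tested.

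**Figure D3:**
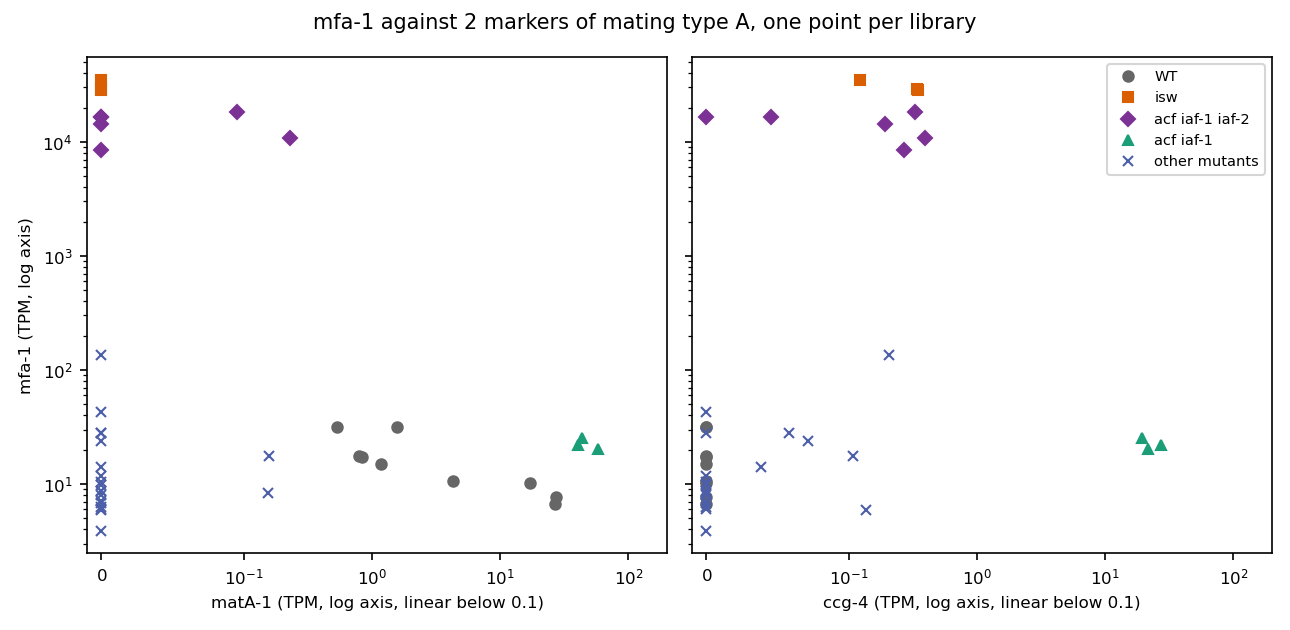
The mfa-1 level against matA-1 (left) and ccg-4 (right) in TPM on logarithmic axes that are linear below 0.1 on the x axis, with 1 point per library. The isw and acf iaf-1 iaf-2 libraries share matA-1 levels near 0 with most other mutants while their mfa-1 is far higher, and the acf iaf-1 libraries alone are high for both A markers.

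The genes that carry the pheromone signal inside the cell had small median changes in isw and the triple mutants. Of 13 such genes, all of which passed the filter, 7 rose and 0 fell in isw, 6 rose and 0 fell in the triple mutant of series 118, and 5 rose and 2 fell in that of series 112. Of all genes tested 48.3%, 51.1% and 54.9% were called there, and 29.0%, 29.8% and 28.6% were higher. The list's share called in either direction was near the background, and its share called higher was above it. That difference was not tested. The median log2 changes were 0.30, 0.28 and 0.19, against 0.08, 0.05 and 0.00 over all genes tested. In isw these included mak-2, the MAP kinase of the pathway (0.35 ± 0.11, adjusted p = 0.0133, limma), ham-5, its scaffold (0.69 ± 0.15, adjusted p = 0.00121), and pp-1, its transcription factor (0.31 ± 0.10, adjusted p = 0.0223). The pp-1 call was lost without WT replicate 2 or 3 and isw replicate 2 or 3, and by edgeR. One gene of the group rose further: adv-1, a transcription factor of cell fusion and sexual development, changed by 0.93 ± 0.26 in isw, 2.29 ± 0.26 in the triple mutant of series 118, and 1.69 ± 0.26, 1.35 ± 0.26 and 1.50 ± 0.29 in acf iaf-1, acf iaf-2 and iaf-1 iaf-2, with the last 3 called at adjusted p of 8.98e-05, 0.000795 and 0.00128. It was thus called in doubles in which mfa-1 was not.

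In acf of series 111, where 66.0% of all genes were called, 7 of 13 signal genes rose and 2 fell, a count near that background, with gna-1, a G protein alpha subunit, at 1.14 ± 0.13 (adjusted p = 1.1e-05, edgeR), while mfa-1 measured 6.07 against 8.16 TPM. In iaf-1, iaf-2, set-7 and acf of series 112, 1, 0, 0 and 0 rose and 1, 1, 2 and 1 fell, where 28.8%, 19.6%, 14.1% and 27.2% of all genes were called. In acf iaf-1 2 rose and 1 fell, in acf iaf-2 1 rose and 0 fell, and 1 rose and 0 fell in iaf-1 iaf-2, where 31.6%, 24.7% and 21.5% of all genes were called. No gene of a further list, on prenylation and export of the pheromone, was found under its name in the reference table.

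Another gene of the melanin list was set beside per-1. The row named tetrahydroxynaphthalene reductase-2 reductase in the files, by its name an enzyme that acts after the polyketide synthase, rose in every comparison of an acf-labelled group with WT. It measured 10.9 TPM ± 2.46 (SD, n = 3) in acf of series 111 against 0.446 ± 0.428 in WT, a log2 change of 4.77 ± 0.60 (adjusted p = 2.07e-05, edgeR), where per-1 had 12 reads. In acf of series 112 it measured 21.0 ± 3.19 TPM, in acf iaf-1 33.5 ± 2.44, in acf iaf-2 45.4 ± 3.98, in isw 56.7 ± 0.871 and in the triple mutants 51.2 ± 9.70 (series 118) and 75.3 ± 9.39 (series 112). The level in acf iaf-2 was thus close to that of isw and the triple mutant, while per-1 was at 0.751 against 16.4 and 23.3 TPM. In iaf-1, iaf-2 and set-7 it measured 0.393, 0.230 and 0.210 TPM and was not called, and in iaf-1 iaf-2 it reached 0.628 (0.53 ± 0.15, adjusted p = 0.0166, limma), a call lost without WT replicate 3 or iaf-1 iaf-2 replicate 2. In iaf-1 iaf-2 and WT of series 118 it was under 1 TPM and passed the filter only through the other groups. It was the single gene found for this list.

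Of 22 genes of sexual development, 19 passed the filter in series 112 and 118. In isw 9 rose and 1 fell, in the triple mutant of series 118 9 rose and 2 fell, and in that of series 112 9 rose and 0 fell, with median log2 changes of 0.23, 0.11 and 0.46 against 0.08, 0.05 and 0.00 over all genes. These counts stand beside 48.3%, 51.1% and 54.9% of all genes called in either direction, and the called shares of the list were near them. Of all genes 29.0%, 29.8% and 28.6% were higher, and the list's shares called higher were above these, a difference that was not tested. The largest rise of the list in isw and in the triple mutant of series 118 was that of poi-2, a gene abundant in sexual tissue and needed for perithecia. It changed by 5.25 ± 0.25 in isw and by 5.54 ± 0.25 in the triple mutant of series 118, from 1.98 to 112 and 139 TPM. It also rose in the single mutants, where mfa-1 was not called, by 3.51 ± 0.17 in acf (adjusted p = 3.14e-08, edgeR), 2.88 ± 0.17 in iaf-1 and 0.93 ± 0.19 in iaf-2 of series 111, and by 2.15 ± 0.34 in set-7 (adjusted p = 0.00146) and 3.90 ± 0.32 in acf of series 112. In acf iaf-1, acf iaf-2 and iaf-1 iaf-2 its change was 5.55 ± 0.25, 4.92 ± 0.25 and 4.79 ± 0.28 (limma). The iaf-2 call was lost when the much alike libraries were summed (adjusted p = 0.155).

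Another gene of this list that was near 0 in WT and higher in isw and the triple mutants was sms-2, an Argonaute gene of meiotic silencing. It measured 4.73 TPM ± 0.960 (SD, n = 3) in isw, 5.99 ± 0.495 and 3.23 ± 0.531 in the triple mutants of series 118 and 112, and 0.0288 ± 0.0254 in WT of series 118. In the doubles it stood at 0.694 ± 0.129 (acf iaf-1), 0.341 ± 0.0959 (acf iaf-2) and 0.394 (iaf-1 iaf-2), and in acf of series 112 at 0.273 ± 0.234. It changed by 2.46 ± 0.16 in isw (adjusted p = 1.33e-09) and by 0.72 ± 0.16 in acf iaf-1 (adjusted p = 0.00304) on log2(TPM + 1) by limma. In acf iaf-1 and WT it was under 1 TPM and passed the filter only through the isw and triple mutant libraries.

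Other genes of the sexual list moved at least 2-fold in single comparisons. The ascus gene asd-1 was 1.15 ± 0.27 higher (log2) in acf iaf-1, asd-3 changed by 1.40 ± 0.25 in isw, 1.13 ± 0.25 in acf iaf-2 and −1.99 ± 0.42 in set-7, and asd-4, a GATA-type factor, by 1.08 ± 0.21 in isw. The Myb-like gene rca-1 was 1.24 ± 0.14 higher in the triple mutant of series 118 and 1.22 ± 0.14 higher in acf iaf-1, and the meiotic gene spo11 was 1.30 ± 0.24 higher in acf iaf-2. The perithecial gene app was lower in acf (−3.01 ± 0.75) and iaf-1 (−2.54 ± 0.72) of series 111 and in acf iaf-1 (−2.53 ± 0.36) and acf iaf-2 (−1.22 ± 0.36). These changes were called, by edgeR in series 111 and 112 and limma in series 118, and the asd-3 call in set-7 was lost in a fit of the compared groups alone (adjusted p = 0.0522). The app calls were less firm: the one in acf was lost with DESeq2, the one in iaf-1 in 6 of 12 alternatives, among them without WT replicate 2 or iaf-1 replicate 2, and the one in acf iaf-2 without WT replicate 2 or 3 or acf iaf-2 replicate 1 or 2. A last set was called in libraries labelled acf of series 111: fsd-1, a transcription factor of female development (1.69 ± 0.19), nox-2, an NADPH oxidase (2.14 ± 0.14), bek-1, a homeobox gene (1.57 ± 0.32), and tng (1.03 ± 0.11) rose, and the tyrosinase gene T fell (−2.88 ± 0.62). The direction of these changes was not that of every mutant. The fsd-1 gene was lower in acf of series 112 (−0.41 ± 0.13, lost without WT replicate 2 or any 1 of the 3 acf replicates), acf iaf-1 (−0.95 ± 0.13) and acf iaf-2 (−0.65 ± 0.13) and higher in iaf-1 iaf-2 (1.06 ± 0.15), and T was higher in iaf-1 (2.12 ± 0.37). Over the whole list 10 of 18 genes rose and 4 fell in acf of series 111, where 66.0% of all genes were called.

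Markers of conidia, the asexual spores, also moved. Of 7 such genes, 6 passed in series 118, where 2 rose and 3 fell in isw and 2 rose and 1 fell in the triple mutant, beside 48.3% and 51.1% of all genes called. There con-6 rose by 3.71 ± 0.20 in isw (adjusted p = 7.27e-11, limma) and 3.65 ± 0.20 in the triple mutant, and eas, the spore hydrophobin gene, by 2.43 ± 0.69 and 3.26 ± 0.69. In contrast con-8 changed by −1.37 ± 0.46 and ccg-1 by −1.42 ± 0.34 in isw, and con-10 by −1.79 ± 0.40 in the triple mutant of series 112. The con-8 call in isw was lost without WT replicate 2 or 3 or isw replicate 1 or 2. The summed level of the 7 genes was 974 to 1406 TPM in isw, 1274 to 2487 in the triple mutant and 1694 to 3580 in WT of series 118. In libraries with low mfa-1, eas was 4.36 ± 0.77 higher in acf of series 111 and 3.20 ± 0.69 higher in acf iaf-2, and changed by −3.22 ± 0.77 in iaf-1 iaf-2, the last not called without iaf-1 iaf-2 replicate 2. The part of conidia in the levels of the 3 genes was not tested.

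**Figure D4:**
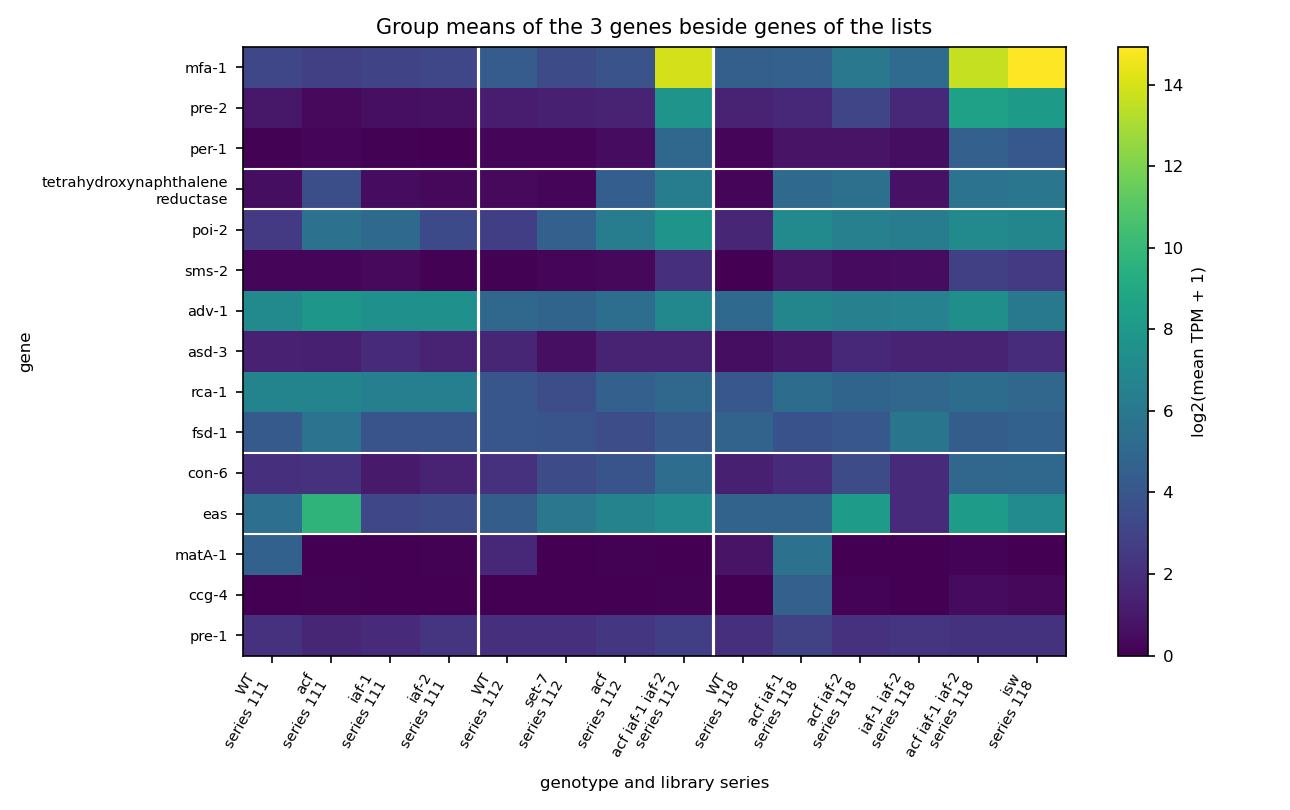
Group means of mfa-1, pre-2 and per-1 and of genes from the melanin, sexual, signal, conidial and mating-type lists, as log2(mean TPM + 1) in colour, with groups on the x axis and genes on the y axis. Each of the 3 upper rows is highest in isw and acf iaf-1 iaf-2, whereas the reductase row and poi-2 are raised in acf and in doubles as well.

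The genes beside the 3 were examined to see how far each change reached. Of the 6 nearest neighbours of mfa-1, 3 on each side in the reference order, 0 were called in isw, where their log2 changes ran from −0.17 to 0.60. In the triple mutants 0 rose and 2 fell (series 118) or 3 fell (series 112), with NCU01258, the next gene on one side, at −0.85 ± 0.11 in series 112 (adjusted p = 7.11e-06, edgeR). No neighbour of mfa-1 that passed the filter was called higher in these 3 comparisons. Of all genes tested 48.3% were called in isw, 51.1% in the triple mutant of series 118 and 54.9% in that of series 112. The shares called higher were 29.0%, 29.8% and 28.6%, and counts of so few neighbours were not tested against them. Of 5 neighbours of per-1 that passed in series 118, 0 rose in isw and 0 in the triple mutant, and NCU03583 fell (−0.57 ± 0.22, adjusted p = 0.0430, and −0.64 ± 0.22, adjusted p = 0.0243, limma). In series 112, 1 of 2 rose in the triple mutant, NCU04560 (1.33 ± 0.16, adjusted p = 6.59e-06, edgeR), which was not called in series 118. The NCU03583 call in isw was lost without any 1 of WT replicates 2 and 3 and isw replicates 1, 2 and 3, and that in the triple mutant without WT replicate 2 or triple mutant replicate 2 or 3.

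The neighbourhood of pre-2 was different. NCU05759, the gene next to it, measured 26.5 TPM ± 3.27 (SD, n = 3) in isw, 22.6 ± 2.22 in the triple mutant of series 118 and 19.3 ± 1.36 in that of series 112, with 1 read in WT of each of these series. NCU05761, at position 3 on the same side, measured 7.15 ± 0.589, 7.97 ± 1.32 and 8.09 ± 2.11 TPM, with 2 and 1 reads in WT of series 118 and 112. Both also rose in groups where pre-2 was far below its level in isw, among them acf iaf-2, where pre-2 itself was called higher. In acf iaf-1, NCU05759 stood at 4.61 TPM ± 1.30 (log2(TPM + 1) change 2.42 ± 0.18, adjusted p = 1.56e-08, limma) and NCU05761 at 2.03 ± 1.08, and in acf iaf-2 they stood at 3.57 ± 0.830 and 3.11 ± 1.05. In acf of series 112 they had 20 and 36 reads against 1 and 1 in WT and were called (adjusted p = 0.0120 and 0.00307, edgeR). They were close to the limit of counting there, and the triple mutant libraries carried them past the filter. In iaf-1 iaf-2 they had 5 and 6 reads and were not called. On the other side of pre-2, NCU05757 had log2 fold changes of 0.08 to 0.23 in isw and the triple mutants and was called in none of them. NCU05756 was called higher in the triple mutant of series 118 (1.14 ± 0.32, adjusted p = 0.00723, limma), a call lost in a fit of the compared groups alone, and in iaf-1 iaf-2 (1.84 ± 0.36, adjusted p = 0.00145), where NCU05757 was lower (−1.05 ± 0.15, adjusted p = 8.91e-05). No role is given for these genes, since the tables do not annotate them.

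**Figure D5:**
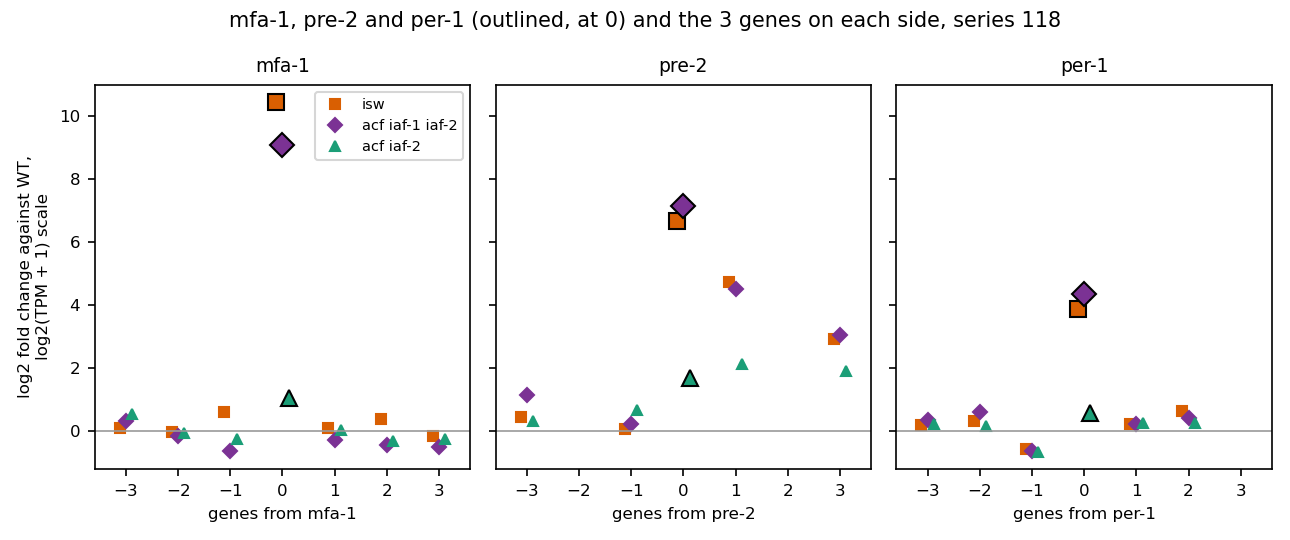
Log2 fold change against WT of series 118, on the log2(TPM + 1) scale, of mfa-1, pre-2 and per-1 (outlined, at 0 on the x axis) and of the 3 genes on each side in the reference gene order. Neighbours of mfa-1 and per-1 lie near 0, while the genes at positions 1 and 3 on one side of pre-2 rise with it and are also raised in acf iaf-2.

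The genes with the pattern most like each of the 3 were ranked by Pearson's r over the 41 libraries, among 8360 genes whose highest group mean was at least 5. The measure was log2(value + 1) less the WT mean of the library's series, where the value is CPM, reads scaled to the library total, in series 111 and 112 and TPM in series 118. These libraries share WT means and a few very high groups, and r is a description with no test. For mfa-1 the nearest were NCU04867 (r = 0.990), NCU01298 (0.986), NCU04616 (0.986), NCU05822 (0.985) and NCU07648 (0.984). For pre-2 they were NCU04869 (0.986), NCU04356 (0.985), NCU04867 (0.985), NCU01298 (0.984) and NCU06889 (0.984), and for per-1 NCU05880 (0.983), NCU05822 (0.963), NCU07648 (0.963), NCU03541 (0.962) and NCU07801 (0.962). Between themselves mfa-1 and pre-2 had r = 0.980, each the 9th nearest to the other, and per-1 had r = 0.945 with mfa-1 and 0.942 with pre-2.

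The genes most like mfa-1 and pre-2 included very abundant transcripts. NCU01298 measured 3264 TPM ± 173 (SD, n = 3) in isw and 1925 ± 602 in the triple mutant of series 118, against 9.82 ± 0.699 in WT. NCU04869 measured 1793 ± 48.6 and 1504 ± 61.6 against 0.245 ± 0.424, and NCU04867 measured 595 ± 36 and 406 ± 17.2 against 0.171 ± 0.296. In acf iaf-2 these stood at 18.7 ± 8.86 (NCU01298), 5.54 ± 5.52 (NCU04869) and 1.89 ± 1.63 TPM (NCU04867), so that each was far below its level in isw and the triple mutant, as mfa-1 and pre-2 were. NCU05880, the gene most like per-1, was low in these groups, at 4.59 ± 0.233 TPM in isw, 5.01 ± 0.609 in the triple mutant of series 118, 0.425 ± 0.0487 in acf iaf-2 and 0.0113 ± 0.0196 in WT. The tables give these genes no name or role.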

How the data were processed

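Per the labels' protocols, libraries of total RNA from mycelial cultures were prepared by a kit for stranded mRNA. The submitters' processing notes name HISAT2 2.1.0, featureCounts (Subread 1.6.2), SAMtools 1.9, FastQC, cutadapt 1.14 and Trim Galore 0.4.4. Build, annotation and strand setting: not given in the sources used here. For series 111 and 112 the authors deposited raw read counts per gene, and for series 118 they deposited TPM. Of 94 samples the 41 RNA libraries were used, and the other 53 were not analysed here.

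The members and all gene lists were chosen with earlier results of these data known. Members were matched by symbol or locus tag in the reference gene table (assembly NC12), which matched 10363 of 10397 genes and left 34 unmatched. It was used only for names, chromosomes and gene order. Counts were tested with edgeR 4.0.16 (TMM, filterByExpr, quasi-likelihood test) and TPM with limma 3.58.1 on log2(TPM + 1) for genes that reached 1 TPM in 2 or more libraries (R 4.3.3). All groups of a series entered 1 fit, and p-values were adjusted by Benjamini and Hochberg over all genes tested, with a threshold of 0.05. The main fits were tried on simulated data for some of the comparisons, and the other steps were not.

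The steps of the TPM gave whole reads for 100% of 10397 genes (tolerance 0.001 reads), and the resulting lengths per gene turned the counts of series 111 and 112 into TPM. Alternatives were other scalings, DESeq2 1.42.0, edgeR on the recovered reads, no filter, a pseudocount of 0.1, a fit of the compared groups alone, the replicate block, each library left out, the closest pairs of series 111 summed, and series 118 without the libraries numbered 44 to 48. The text names the 3 genes, list genes called at least 2-fold in any tested comparison with mating-type markers throughout, the 3 neighbours on each side, and the 5 genes most like each of the 3, plus pathway and sexual genes chosen after their values were seen (mak-2, ham-5 and pp-1). The lists held 5 mating-type markers, 13 genes of the pheromone response, 1 melanin gene, 22 genes of sexual development and 7 of conidia.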

Additional observations from a re-analysis of the deposited data

How the results depend on the processing

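How many of the 3 genes were called changed under at least 1 alternative in 7 of 13 tested comparisons. With single libraries left out, the count ran from 0 to 1 in set-7 (0 in the fit of all libraries), in acf against WT of series 112 (1), in acf against set-7 (1), in the acf effect between series (0) and in acf iaf-1 (1), and from 1 to 2 in acf iaf-2 (2). In a fit of the compared groups alone it was 0 in acf against set-7, 0 in acf iaf-1 and 1 in acf iaf-2, since per-1 did not pass the filter in the last pair of comparisons. In iaf-1 iaf-2 it was 1 with a pseudocount of 0.1 and 1 with edgeR on the recovered reads, against 0. The pre-2 calls of acf iaf-2 held in all alternatives run. One gene of the lists reversed: with single libraries left out, app ran from −1.35 (without triple mutant replicate 1) to 0.90 in the triple mutant of series 112, against 0.46, and its acf effect between series ran from −1.17 (without WT replicate 2 of series 111) to 1.06.

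Replicate numbers did not pair the samples: same-numbered libraries correlated from −0.48 to 0.54 over 27 pairs of groups, and the 2 pairs of groups with all r over 0.1 had 2 shared numbers each. With the replicate block, the number of the 3 genes called was the same in every comparison in which it was fitted, and the number of all genes called stayed within 1.5 times, from 787 (acf iaf-1 against acf iaf-2) to 5086 (acf of series 111), against 930 and 5265. The block was not run for the acf effect between series. The number of genes called moved by over 1.5 times in iaf-1 (2299 to 476) and iaf-2 (1564 to 4) with the closest pairs summed, and with libraries left out up to 2759 in iaf-2. It also moved in a fit of the compared groups alone, in set-7 (1235 to 447), iaf-1 iaf-2 (2007 to 994), acf iaf-1 against iaf-1 iaf-2 (2471 to 1300) and acf iaf-2 against iaf-1 iaf-2 (2554 to 1227), and in acf iaf-1 against acf iaf-2 without acf iaf-2 replicate 1 (930 to 498). Depth limits per-1 and pre-2 outside isw and the triple mutants, where they rest on few reads.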
